A study of Mus musculus with 48 samples.

Results

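A set of 10 genes of the cellular temperature and stress response was followed through frontal cortex and hypothalamus of sleep-deprived mice. They were the cold-inducible RNA-binding genes Cirbp and Rbm3, and the heat shock genes Hspa1b, Hspa8, Hsph1, Dnajb1, Hsp90aa1, Hspb1, Dnaja1 and Hspa4l. Members were found by name: every probe whose RefSeq transcript belongs to 1 of these 10 genes was taken, which gave 18 of the 27668 named probes on the array and 10 of 18883 named genes. Cirbp, Hsph1, Hsp90aa1 and Hspb1 had 1 probe each, Rbm3, Hspa1b, Hspa8 and Dnajb1 had 2 each, and Dnaja1 and Hspa4l had 3 each. All 18 probes were bright enough to be tested in both tissues. The dimmer Rbm3 probe (A_52_P280360) was the only 1 that fell below the scanner's well-above-background call, on 1 of 48 arrays.

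The study asked how a repeat polymorphism of the human clock gene PER3 alters the response to sleep loss. Its 24 mice had been kept awake for 12 h of the light phase, in a protocol the labels call sleep displacement. They were 8 Per3 5/5 mice (labelled Boxhill), 8 Per3 4/4 mice (labelled Coach) and 8 wild-type mice (labelled Wildtype, here WT), and each gave 1 frontal cortex array and 1 hypothalamus array. In the knock-in lines, exon 18 of mouse Per3 was replaced by the human exon with 5 or 4 copies of the repeat, on a C57BL/6 background, and WT mice came from the same conditional line. The mice were adults of a similar age, and their sex was not given for these arrays in the sources used here. Knock-in and WT mice all underwent the deprivation and no rested mouse was analysed here, so a genotype difference is a difference after sleep loss and nothing below measures a response to it.

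Heat shock proteins are chaperones: Hsp70-type proteins bind unfolded chains in cycles driven by ATP, J-domain proteins deliver clients to them, and Hsp110-type proteins recharge them. Heat and other stress switch on many of these genes through heat shock factor HSF1, which binds inverted repeats of GAA in their promoters. Cirbp and Rbm3 are small RNA-binding proteins whose transcripts respond the opposite way, rising on mild cooling and falling on warming, and brain temperature itself follows wake and sleep.

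Promoter sequences are shown first for the genes on which the results below turn, because the heat shock genes are commonly grouped by this element and the cold-inducible genes are not. The RefSeq promoter table (GRCm38.p6, 300 bases around each gene start, most of them upstream) held 12 promoters of 7 of the 10 members, and Hspa8, Hsp90aa1 and Rbm3 are named only. Each was searched on both strands for the 2-unit repeats GAANNTTC and TTCNNGAA, and for 3-unit repeats, in which alternating GAA and TTC units stand 2 bases apart and which therefore contain both shorter ones. At least 1 of the 2-unit repeats stood in promoters of 4 members (Hspa1b, Hsph1, Hspb1 and Dnaja1), against 15.1% of all 32851 promoters. A 3-unit repeat stood in 1 member, Hsph1, against 0.603% of all promoters. Both member counts are of genes, some with more than 1 promoter, while both shares are of promoters. The counts and shares are therefore unlike measures. Capitals below mark the repeats, and the 4 sequences are in the order Hspa1b (chr17:34959189-34959488, minus strand), Dnaja1 (chr4:40722218-40722517, plus strand), Hsph1 (chr5:149636287-149636586, minus strand) and Cirbp (chr10:80167589-80167888, plus strand).
Hspa1b: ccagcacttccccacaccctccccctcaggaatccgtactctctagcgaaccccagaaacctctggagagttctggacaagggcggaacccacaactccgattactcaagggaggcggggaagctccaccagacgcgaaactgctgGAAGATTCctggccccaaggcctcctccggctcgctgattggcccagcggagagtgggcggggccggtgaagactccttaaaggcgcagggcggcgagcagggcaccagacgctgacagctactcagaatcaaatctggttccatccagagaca
Dnaja1: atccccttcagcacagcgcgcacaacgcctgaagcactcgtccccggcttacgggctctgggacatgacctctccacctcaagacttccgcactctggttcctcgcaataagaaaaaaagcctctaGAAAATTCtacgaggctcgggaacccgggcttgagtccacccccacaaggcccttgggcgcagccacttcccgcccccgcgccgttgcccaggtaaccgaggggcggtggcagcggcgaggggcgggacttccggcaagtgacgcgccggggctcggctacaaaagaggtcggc
Hsph1: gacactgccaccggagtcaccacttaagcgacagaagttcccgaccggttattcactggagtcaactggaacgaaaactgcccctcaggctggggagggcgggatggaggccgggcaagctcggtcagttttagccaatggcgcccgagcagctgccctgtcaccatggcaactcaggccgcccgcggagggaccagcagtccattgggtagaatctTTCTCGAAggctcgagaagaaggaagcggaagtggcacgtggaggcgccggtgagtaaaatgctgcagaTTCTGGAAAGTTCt
Cirbp: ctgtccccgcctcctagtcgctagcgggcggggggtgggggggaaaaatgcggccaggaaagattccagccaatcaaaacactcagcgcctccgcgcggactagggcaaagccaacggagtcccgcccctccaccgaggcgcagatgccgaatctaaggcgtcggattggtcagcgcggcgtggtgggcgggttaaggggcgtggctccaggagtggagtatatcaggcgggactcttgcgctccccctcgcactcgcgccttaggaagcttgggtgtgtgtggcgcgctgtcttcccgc
The Hspa1b repeat began 104 bases before the start, the Dnaja1 repeat 124 bases before it, and the upstream Hsph1 repeat 33 bases before it. In the sequence shown, the 3-unit Hsph1 repeat began 36 bases after the gene start. Neither Cirbp window held such a repeat. The Dnajb1 and Hspa4l windows and the other Dnaja1 windows, which are not printed, held none either. Hspa1b shares 296 of these 300 promoter bases with its neighbour Hspa1a, which is not a member. Whether the signal of Hspa1b probes includes Hspa1a transcripts is a separate question, which could not be checked without the probe sequences. A match is a run of letters in this window and says nothing on binding.

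Levels are the log2 processed signal of a probe minus the log2 75th percentile of its array, so 0 is that percentile and 1 unit is a doubling. A probe's level depends on its own hybridisation, and levels are compared between mice and tissues but not between probes. Unless stated otherwise, a gene is represented by its probe with the highest mean signal. Brightness before scaling varied, with a 75th percentile of 307 to 1884 intensity units over the 48 arrays, and no spot was saturated. Tissue markers followed the labels: all 5 cortex markers were lower and all 8 hypothalamus markers higher in hypothalamus than in cortex. Arrays were scanned on 3 days that were not balanced over genotypes. Of the Per3 5/5 mice, 4 were scanned on day 1 and 4 on day 3. The Per3 4/4 mice fell into 4, 3 and 1 over days 1 to 3, and WT mice into 5 on day 2 and 3 on day 3. Pituitary hormone transcripts (6 genes) were far higher in the hypothalamus of WT replicate 8, with a summed linear level of 746.6 against at most 43.9 in any other array. All member calls of the tissue comparison below held when that mouse, or any other single mouse, was left out. These arrays are bulk tissue, in which fewer cells of a type and less RNA per cell cannot be told apart.

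The clearest contrast within the cold-inducible pair lay between the tissues. Cirbp was higher in hypothalamus and Rbm3 lower, and both shifts were seen in nearly every mouse. In cortex, the lowest, median and highest Cirbp levels were 2.12, 2.29 and 2.81 in Per3 5/5 mice, 2.26, 2.62 and 2.96 in Per3 4/4 mice and 2.37, 2.54 and 2.94 in WT mice. In hypothalamus they were 2.75, 3.11 and 3.30, then 3.03, 3.32 and 3.60, then 3.06, 3.40 and 3.65 in the same order. Genotypes overlapped within each tissue, and over all mice the tissues overlapped between 2.75 and 2.96.

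The within-mouse difference of Cirbp (hypothalamus minus cortex) ran from 0.32 to 1.15 with a median of 0.73, and was positive in 24 of 24 mice. Its mean was 0.72 ± 0.04 (SE, n = 24; limma adjusted p = 1.4e-13). Rbm3 went the other way: its cortex levels ran from 1.25 to 2.36 in Per3 5/5 mice, from 1.27 to 2.49 in Per3 4/4 mice and from 1.68 to 2.30 in WT mice. Hypothalamus levels of Rbm3 ran from 0.61 to 1.14, from 0.84 to 1.55 and from 0.94 to 2.25 in the same order. The highest of these belonged to WT replicate 3, the only mouse in which Rbm3 was not lower in hypothalamus. The mean difference of Rbm3 was -0.77 ± 0.06 (SE, n = 24; limma adjusted p = 1.5e-11), with 23 of 24 mice negative. The dimmer Rbm3 probe, made to another RefSeq transcript of the gene, averaged -0.004 ± 0.13 (adjusted p = 0.98) and was negative in 17 of 24 mice, and its values between mice followed the brighter probe weakly (r = 0.22 in cortex and 0.25 in hypothalamus, 24 mice each). The Rbm3 result is thus that of 1 of its 2 probes.

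Among the heat shock genes, Hspb1 and Hspa4l differed most between the tissues. Hspb1 encodes the small heat shock protein Hsp27, which holds unfolded proteins without ATP. Its level over all mice was 0.33 to 1.29 in cortex and 0.88 to 1.90 in hypothalamus, and rose by 0.59 ± 0.08 (SE; adjusted p = 2.1e-07), in 23 of 24 mice. Hspa4l, an Hsp110-type protein, was higher in hypothalamus in 24 of 24 mice on each of its 3 probes, by 0.53 ± 0.05, 0.47 ± 0.05 and 0.46 ± 0.05 (largest adjusted p = 7.0e-09). The inducible Hsp70 gene Hspa1b was higher by 0.23 ± 0.05 (adjusted p = 0.000102) in 21 of 24 mice on its brighter probe, and by 0.12 ± 0.07 on its dim probe, which was not called (adjusted p = 0.15).

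Smaller tissue differences were called for Hsp90aa1 (0.14 ± 0.05, adjusted p = 0.016), the inducible cytosolic Hsp90, for the constitutive Hsp70 gene Hspa8 (-0.11 ± 0.03, adjusted p = 0.003) and for the J-domain gene Dnajb1 on its dimmer probe (-0.24 ± 0.06, adjusted p = 0.00058, 19 of 24 mice). The Hsp90aa1 call was lost under median centring (0.09, adjusted p = 0.16) and the Hspa8 call under quantile normalization (-0.01, adjusted p = 0.82). The brighter Dnajb1 probe did not follow its partner (0.07 ± 0.06, adjusted p = 0.28), and no difference passed the test for Hsph1, an Hsp110-type exchange factor, or for any of the 3 probes of the J-domain gene Dnaja1. In all, 10 of 18 member probes were called, 7 higher and 3 lower in hypothalamus, against 73.6% of all 31237 probes, so the members were called no more often than probes at large. Their median difference was 0.05, against 0.01 over all probes tested.

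**Figure D1:**
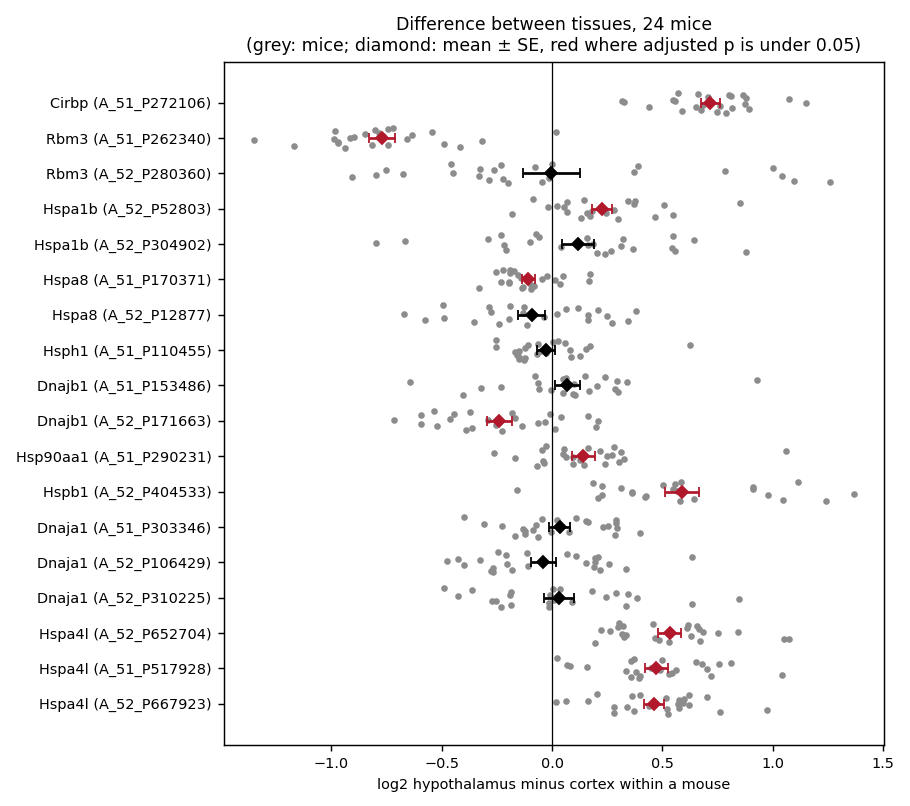
Log2 hypothalamus minus cortex within a mouse (horizontal axis) for each of the 18 member probes (rows). Grey points are the 24 mice and diamonds are limma means with SE, red where the adjusted p was under 0.05; Cirbp (0.72) and Rbm3 (-0.77) lie farthest from 0 in opposite directions.

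The knock-in genotypes could not be separated from each other on any member. For Per3 5/5 minus Per3 4/4, limma called no member probe in cortex (3 of 18 at an unadjusted p under 0.05) or hypothalamus (4 of 18), and no probe of the array was called there either (0.0% in each tissue). With scan day as a block these shares stayed at 0.0% and 0.0%, with 1 and 2 member probes at an unadjusted p under 0.05. The methods' t-test with Benjamini-Hochberg adjustment also called none. The paper also used a rank product test, which was not repeated here, and reported transcripts that differed between these genotypes in both tissues. The median difference over the 18 probes was -0.14 in cortex and -0.21 in hypothalamus, against 0.02 and 0.01 over all probes.

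Against WT, all called members were lower in the knock-in mice, and they were probes of 2 genes, Hspa4l and Dnaja1. Per3 5/5 minus WT called 2 of 18 probes in cortex, where 12.3% of 29724 probes were called, and 3 of 18 in hypothalamus, where 18.8% of 30746 were. Per3 4/4 minus WT called 1 of 18 in each tissue, against 22.5% in cortex and 15.1% in hypothalamus. Over the 5/5 and 4/4 comparisons in the order cortex, hypothalamus, the median difference of the members was -0.01 and -0.18 for Per3 5/5, and 0.07 and -0.03 for Per3 4/4, with 0.06, 0.03, 0.02 and 0.02 over all probes. The 2 comparisons share the WT mice. The members were thus called about as often as probes at large, or less often.

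Hspa4l gave the widest separation. On the probe A_52_P652704, the lowest, median and highest cortex levels were 1.35, 1.51 and 1.99 in Per3 5/5 mice, 1.21, 1.56 and 1.67 in Per3 4/4 mice and 1.87, 1.94 and 2.12 in WT mice. All 8 Per3 4/4 mice and 7 of 8 Per3 5/5 mice thus lay below the lowest WT mouse. The differences from WT were -0.48 ± 0.09 for Per3 4/4 (SE, n = 8 and 8; limma adjusted p = 0.0018) and -0.38 ± 0.09 for Per3 5/5 (adjusted p = 0.012).

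In hypothalamus the same Hspa4l probe was 1.68 to 2.55 in Per3 5/5, 1.80 to 2.49 in Per3 4/4 and 2.21 to 2.61 in WT mice, so that the groups overlapped. The differences from WT were -0.36 ± 0.11 (adjusted p = 0.027) and -0.37 ± 0.11 (adjusted p = 0.032). Single mice mattered there: leaving out 1 mouse ended the Per3 5/5 call in 3 of 24 cases and the Per3 4/4 call in 8. Scan day moved the values too. With scan day as a block the cortex difference of Per3 4/4 was -0.41 ± 0.09 (adjusted p = 0.013) and that of Per3 5/5 was -0.38 ± 0.10 (adjusted p = 0.056), while both hypothalamus differences shrank to -0.20 and -0.23 (adjusted p = 0.32 and 0.27). Within day 2 alone, 3 Per3 4/4 mice against 5 WT mice differed by -0.51 ± 0.11 in cortex (adjusted p = 0.067) and -0.16 ± 0.14 in hypothalamus (adjusted p = 0.66). Within day 3 alone, 4 Per3 5/5 mice against 3 WT mice differed by -0.27 ± 0.14 and -0.23 ± 0.15 (adjusted p = 0.38 and 0.43).

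The other Hspa4l probes followed each other closely and this one weakly. A_51_P517928 and A_52_P667923 correlated at 0.91 in cortex and 0.92 in hypothalamus between mice, but at 0.13 and 0.16 with A_52_P652704 in cortex and at -0.29 and -0.15 in hypothalamus. With scan day removed the pair was still at 0.90 and 0.86, and the values with A_52_P652704 were 0.46 and 0.46 in cortex and 0.071 and 0.20 in hypothalamus. Their differences from WT were all negative, and 1 of them was called, A_52_P667923 in Per3 5/5 hypothalamus (-0.36 ± 0.12, adjusted p = 0.044), and -0.42 ± 0.12 with days blocked (adjusted p = 0.064). Leaving out single mice ended that call in 13 of 24 cases.

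The Dnaja1 differences were also called on 1 of the 3 probes of that gene. On A_52_P310225 the cortex levels were 0.39 to 1.58 in Per3 5/5, 0.80 to 1.83 in Per3 4/4 and 1.47 to 2.12 in WT mice, with 7 of 8 Per3 5/5 mice below the lowest WT mouse. Per3 5/5 differed from WT by -0.68 ± 0.16 in cortex (adjusted p = 0.011) and by -0.58 ± 0.17 in hypothalamus (adjusted p = 0.021). Blocking on scan day gave -0.56 ± 0.20 (adjusted p = 0.11) and -0.36 ± 0.18 (adjusted p = 0.24), and within day 3 alone, 4 Per3 5/5 mice against 3 WT mice, they were -0.74 ± 0.21 and -0.68 ± 0.23 (adjusted p = 0.14 and 0.24). The brightest Dnaja1 probe, A_51_P303346, differed by -0.15 and -0.23 in the 2 tissues and was not called in either, although both probes varied together between mice (r = 0.57 in cortex and 0.63 in hypothalamus, and 0.88 and 0.72 with scan day removed).

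Taking A_52_P310225 relative to the brightest Dnaja1 probe within an array, the cortex log2 ratio was -3.35 to -2.63 in Per3 5/5 mice and -2.54 to -2.24 in WT mice, with no overlap, while Per3 4/4 mice (-3.59 to -2.43) overlapped WT. In hypothalamus the ranges were -3.26 to -2.73 in Per3 5/5, -3.54 to -2.35 in Per3 4/4 and -2.83 to -2.35 in WT mice, and all of them overlapped. That ratio was looked at after the probes had been seen to disagree, so it is a description, and why probes made to 1 RefSeq transcript differ was not tested.

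Cirbp and Rbm3 came close to the threshold in 1 comparison. In Per3 5/5 hypothalamus they were below WT by -0.30 ± 0.11 (adjusted p = 0.059) and -0.40 ± 0.15 (adjusted p = 0.057), a gap that scan day blocking narrowed to -0.17 and -0.25 (adjusted p = 0.42 and 0.41). Without WT replicate 3, whose Rbm3 level of 2.25 was the highest of its group, the values were -0.26 (adjusted p = 0.11) and -0.28 (adjusted p = 0.10). No genotype difference of Cirbp or of either Rbm3 probe passed the test. Neither did any for Hspa1b, Hspa8, Hsph1, Dnajb1, Hsp90aa1 or Hspb1. With scan day as a block, the background share called against WT fell to 0.986% (Per3 5/5) and 7.72% (Per3 4/4) in cortex and to 2.09% and 0.745% in hypothalamus, with 1 of 18 member probes called in all 4 comparisons together, the Hspa4l probe in Per3 4/4 cortex.

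No member's genotype difference itself differed between the tissues. The interaction tests called none of the 18 probes, against 0.0% of all probes for Per3 5/5 minus Per3 4/4, 0.0096% for Per3 5/5 minus WT and 0.0032% for Per3 4/4 minus WT. At an unadjusted p under 0.05 there were 1, 1 and 0 member probes in the same order.

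**Figure D2:**
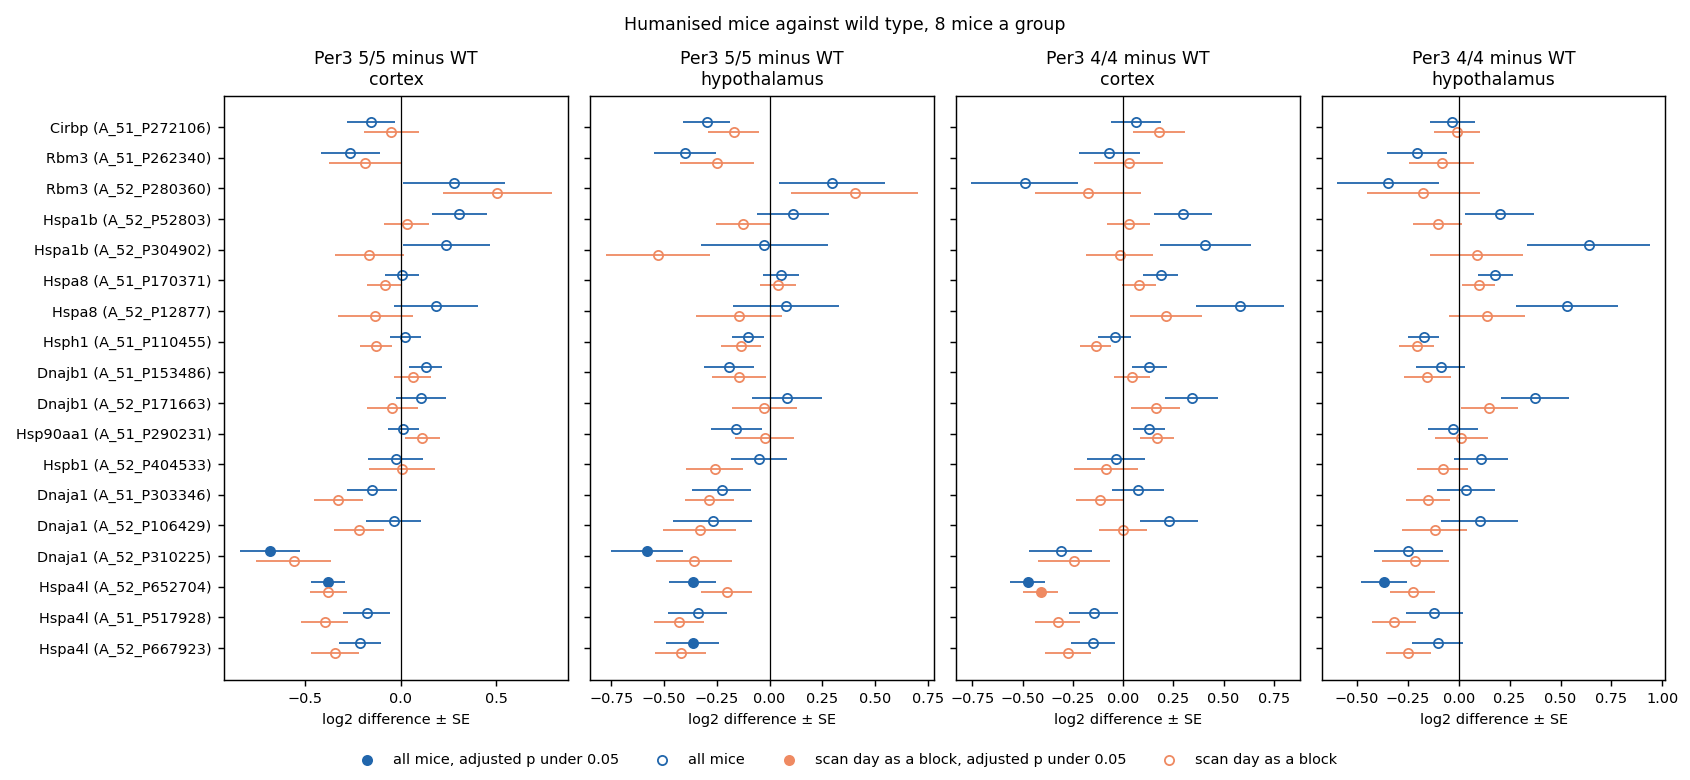
Log2 difference from WT with SE (horizontal axis) for the 18 member probes (rows), in each tissue and knock-in genotype, 8 mice a group. Filled symbols mark an adjusted p under 0.05 in the fit on all mice (blue) and with scan day as a block (orange); the Hspa4l probe A_52_P652704 in Per3 4/4 cortex (-0.48 and -0.41) is the only 1 filled in both.

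Within the Per3 5/5 mice, several heat shock genes, the constitutive Hspa8 among them, differed between scan days. Hspa1b in Per3 5/5 cortex ran from -0.79 to -0.37 in the 4 mice scanned on day 1 and from -1.52 to -1.11 in the 4 scanned on day 3. In hypothalamus of the same mice the ranges were -0.58 to -0.31 and -1.47 to -1.005. Neither tissue showed any overlap between the days. Hspa8 and the bright Dnaja1 probe behaved alike: day 1 was above day 3 without overlap in both tissues, by 0.38 and 0.40 for Hspa8 and by 0.57 and 0.73 for Dnaja1. In these 8 mice, every day 1 array exceeded every day 3 array on 8 of 18 member probes in cortex and 10 of 18 in hypothalamus, against 9.62% and 14.6% of all probes. These were both probes of Hspa1b and of Hspa8 and 2 of Dnaja1 in each tissue, with 1 probe of Dnajb1 and 1 of Hspa4l in cortex and 2 of each in hypothalamus. They belong to 5 genes in each tissue, and probes of 1 gene are not independent. Only the direction that the members showed was counted over all probes. All probes of Cirbp, Rbm3, Hsph1, Hsp90aa1 and Hspb1 overlapped between the days in both tissues. Whether the mice or the scanning differed between these days cannot be told apart.

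**Figure D3:**
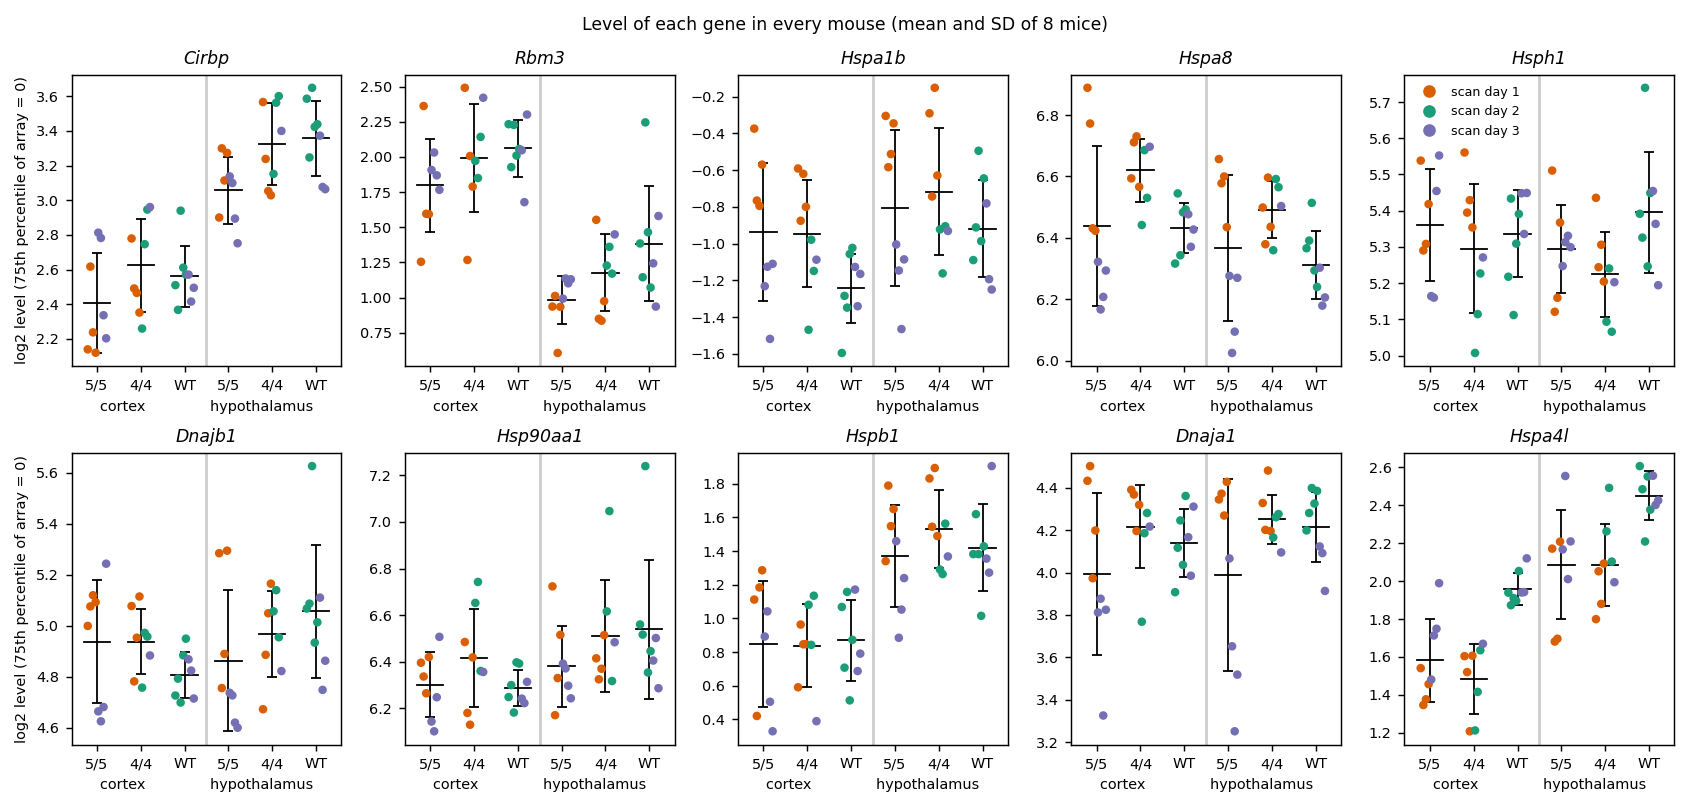
Log2 level of each member on its brightest probe (vertical axis, 0 is the array's 75th percentile, scales differ between panels) in every mouse, by tissue and genotype. Points are mice coloured by scan day, and bars are the mean and SD of 8 mice; Per3 5/5 mice of scan day 1 lie above those of day 3 for Hspa1b, Hspa8 and Dnaja1 in both tissues.

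The residual SD of Hspa1b was 0.30 in cortex and 0.35 in hypothalamus, larger than that of 62.0% and 65.2% of the probes tested. The SD of Cirbp was 0.25 and 0.22 (50.3% and 31.3% of probes had a smaller one), and Hsph1 was among the steadier genes, at 0.15 and 0.14 (14.9% and 5.95%). The median SD of all probes was 0.25 in cortex and 0.28 in hypothalamus.

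Covariation between mice was measured on deviations from the genotype mean, for 45 pairs of members in each tissue. P values came from 100000 two-sided permutations of mice within genotypes and were adjusted over the 90 pairs. For pairs with scan day removed, mice were permuted within scan days instead. The 2 cold-inducible genes moved together in cortex: r between Cirbp and Rbm3 was 0.62 (rho = 0.68, permutation p = 0.0039 for r and 0.0012 for rho, adjusted p = 0.039, 24 mice). It was 0.64 without the 2 mice farthest from the Cirbp median, and 0.57 once scan day means were removed too (adjusted p = 0.021). Leaving out 1 mouse ended the call in 8 of 24 cases (adjusted p of up to 0.077), which were Per3 5/5 replicates 1, 3, 4 and 6, Per3 4/4 replicates 4 and 8 and WT replicates 3 and 7. It was also lost with quantile normalization (r = 0.59, adjusted p = 0.065), with normexp background correction (r = 0.34, adjusted p = 0.37) and with the mean of both Rbm3 probes (r = 0.19, adjusted p = 0.57). Within genotypes r was 0.74, 0.56 and 0.48 in Per3 5/5, Per3 4/4 and WT mice, and within scan days 1, 2 and 3 it was 0.81, 0.50 and 0.43. In hypothalamus r was 0.42 (rho = 0.31, permutation p = 0.052 and 0.17, adjusted p = 0.18), and 0.30 without WT replicate 3.

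The heat shock genes did not form 1 block. Their 28 pairs had a median r of 0.12 in cortex (from -0.38 to 0.81) and 0.31 in hypothalamus (from -0.61 to 0.81). Among these pairs, a triad of Hspa1b, Hspa8 and Dnaja1 stood out, the inducible and constitutive Hsp70 and a J-domain partner. Hspa1b and Dnaja1 had r = 0.81 in cortex (rho = 0.76, permutation p = 5e-05 and 0.00011, adjusted p = 0.0022) and r = 0.81 in hypothalamus (rho = 0.82, permutation p = 2e-05 and 3e-05, adjusted p = 0.0018). Without the 2 mice farthest from the Hspa1b median r was 0.71 and 0.76. With scan day removed it was 0.66 and 0.60 (adjusted p = 0.021 and 0.030). Over scan days 1, 2 and 3 the cortex values were 0.24, 0.71 and 0.94, and those of hypothalamus 0.83, 0.68 and 0.70.

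Hspa8 followed Dnaja1 at r = 0.75 in cortex and 0.78 in hypothalamus (rho = 0.62 and 0.76, permutation p = 0.00066 and 0.00068 for r, adjusted p = 0.010 in both), and 0.61 and 0.56 with scan day removed (adjusted p = 0.030 and 0.081). Hspa8 followed Hspa1b at r = 0.72 and 0.67 (rho = 0.69 and 0.65, permutation p = 0.00043 and 0.0022 for r, adjusted p = 0.0097 and 0.028), and 0.54 and 0.41 with scan day removed (adjusted p = 0.064 and 0.23). Without WT replicate 3 the hypothalamus value was 0.64 (adjusted p = 0.066), and without Per3 5/5 replicate 1 both pairs with Hspa8 lay at the threshold in both tissues (adjusted p = 0.050 for each). Of the triad, the pair of Hspa1b with Dnaja1 was still called in both tissues once scan day was removed, and the others in cortex (Hspa8 with Dnaja1) or in neither. With normexp background correction no pair of the triad was called in cortex (r = 0.61 to 0.65, adjusted p = 0.077 to 0.084), and Hspa1b with Dnaja1 was called in hypothalamus (r = 0.72, adjusted p = 0.032).

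Outside the triad, Dnajb1 and Hsp90aa1 had r = 0.74 in hypothalamus (rho = 0.55, permutation p = 0.00022 and 0.0083, adjusted p = 0.0066). WT replicate 3 held the highest value of both genes, 5.63 and 7.24, and without that mouse r was 0.59 (adjusted p = 0.038). With scan day removed and all mice kept, r was 0.76 in hypothalamus (adjusted p = 0.0027) and 0.64 in cortex (adjusted p = 0.021), where it had been 0.47 (adjusted p = 0.12). With the mean of both Dnajb1 probes the hypothalamus value was 0.27 (adjusted p = 0.27). Hspb1 and Hspa4l went in opposite directions in hypothalamus (r = -0.61, rho = -0.48, permutation p = 0.0032 and 0.026, adjusted p = 0.036), which did not hold with scan day removed (r = -0.42, adjusted p = 0.22), turned to 0.24 with the mean of the Hspa4l probes (adjusted p = 0.54) and was lost in 7 of 24 cases when 1 mouse was left out (Per3 5/5 replicates 1, 2 and 6, Per3 4/4 replicates 1, 3 and 6 and WT replicate 4, adjusted p of up to 0.091). A further pair of relations was called only with scan day removed, Hsph1 with Hspa4l in cortex (r = 0.62, adjusted p = 0.030) and Hsph1 with Hsp90aa1 in hypothalamus (r = 0.71, adjusted p = 0.021). The latter was 0.23 before that removal once the 2 mice farthest from the Hsph1 median were left out, against 0.61 with them.

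**Figure D4:**
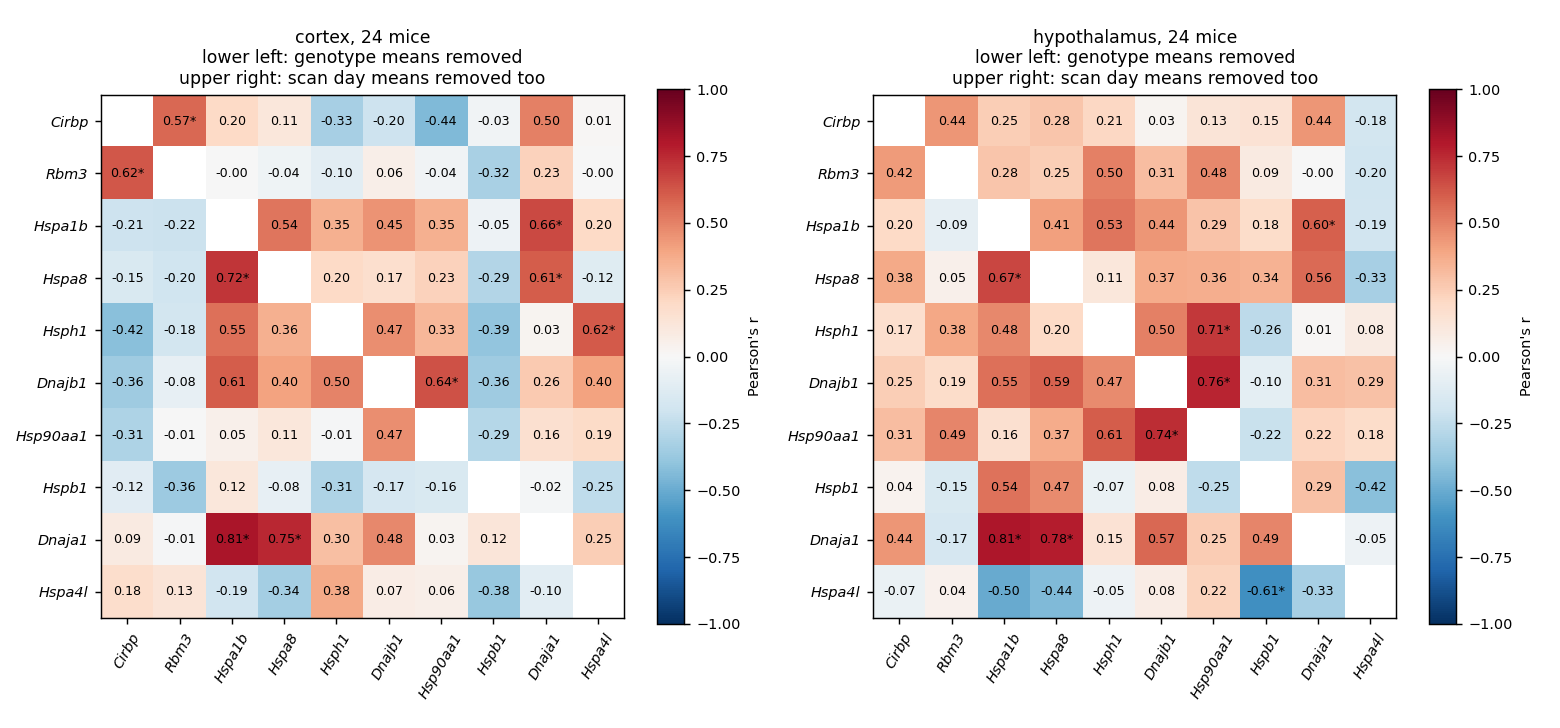
Pearson's r between members over 24 mice in cortex (left) and hypothalamus (right), rows and columns being genes and colour the value of r. The lower left triangle of each panel is taken on deviations from genotype means and the upper right triangle has scan day means removed as well, and stars mark an adjusted p under 0.05; Hspa1b with Dnaja1 (0.81 in each tissue) is starred in all 4 triangles.

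Heat- and cold-inducible genes were not seen to oppose each other. None of the 16 pairs of a cold-inducible with a heat shock gene was called in either tissue, with or without scan day. The median r of these pairs was -0.17 in cortex and 0.18 in hypothalamus, and -0.02 and 0.23 with scan day removed. The most negative was Cirbp with Hsph1 in cortex (r = -0.42, rho = -0.42, permutation p = 0.067 and 0.061, adjusted p = 0.21), which was 0.17 in hypothalamus. Averaged into 1 cold and 1 heat score per mouse, r was -0.29 in cortex and 0.31 in hypothalamus, given with no test. Its sign was not stable. In cortex it was 0.086 with median centring and -0.052 with scan day removed. In hypothalamus it was -0.034 with the mean of all probes and 0.0033 without WT replicate 3, but higher with scan day removed (0.40) and with median centring. Within genotypes the strongest cold-heat relation in cortex was Cirbp with Hsph1 in Per3 5/5 mice (r = -0.87, exact permutation p = 0.0068, n = 8), where it was 0.13 in Per3 4/4 and -0.71 in WT mice. Over the 270 relations tested within genotypes, 43 had an exact permutation p under 0.05 and none was called after adjustment (smallest adjusted p = 0.13).

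**Figure D5:**
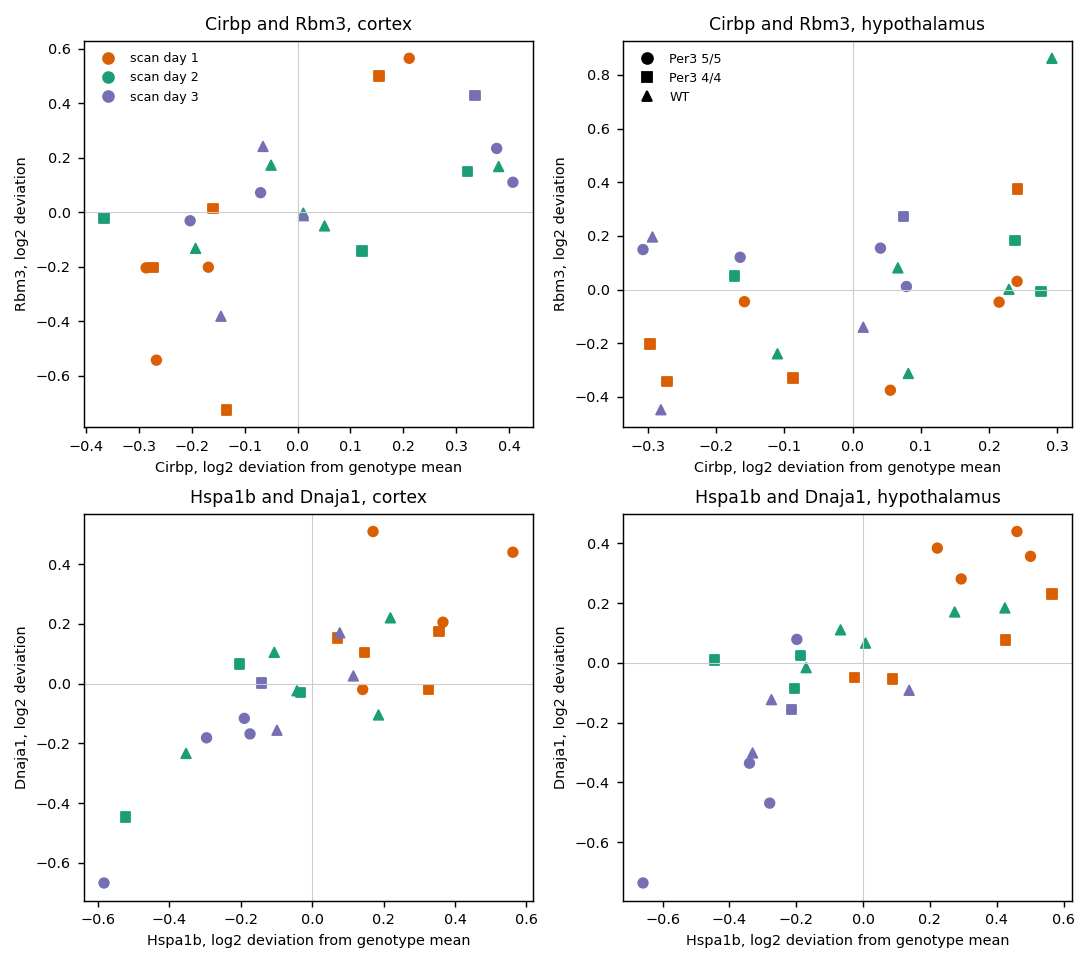
Deviation of each mouse from its genotype mean on the log2 scale for Cirbp and Rbm3 (top) and Hspa1b and Dnaja1 (bottom), in cortex (left) and hypothalamus (right). Colour is scan day and shape is genotype; r is 0.62 and 0.42 in the top row and 0.81 in both panels of the bottom row, where day 1 mice lie mostly to the upper right.

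The levels of several members were shared by the tissues of a mouse. Between cortex and hypothalamus of the same mouse, r was 0.78 for Hspa1b (rho = 0.74, permutation p = 0.0001 and 0.00047, adjusted p = 0.001 over the 10 genes), 0.70 for Hspa8 (rho = 0.58, adjusted p = 0.011), 0.68 for Dnaja1 (rho = 0.54, adjusted p = 0.011), 0.63 for Cirbp (rho = 0.65, adjusted p = 0.0066) and 0.56 for Rbm3 (rho = 0.63, adjusted p = 0.0066). For the last 4 of these genes, in that order, permutation p values for r were 0.0046, 0.0054, 0.002 and 0.0014, and for rho 0.0075, 0.022, 0.00092 and 0.0017. Without the 2 mice farthest from the cortex median, r was 0.69 for Hspa1b, 0.55 for Hspa8, 0.44 for Dnaja1, 0.60 for Cirbp and 0.57 for Rbm3. Hsph1, Dnajb1, Hsp90aa1, Hspb1 and Hspa4l had r of 0.06 to 0.27 and were not called. With scan day removed Cirbp stood highest, at 0.79 (adjusted p = 0.0003), while Hspa1b fell below the threshold (r = 0.46, adjusted p = 0.066). Both tissues of a mouse lay on the same slide and were scanned on the same day. The 24 mice lay on 12 slides, so mice shared slides, but mice were not compared within slides. The part of the slide in these values was not tested.

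Against all other probes tested, most r values with Cirbp were small. The 5th to 95th percentiles of r with Cirbp were -0.45 to 0.42 in cortex and -0.49 to 0.46 in hypothalamus, and Rbm3 lay above that range in cortex (0.62) and inside it in hypothalamus (0.42). For Hspa1b the percentiles were wider, -0.65 to 0.69 and -0.67 to 0.69, and the other 7 heat shock members had a median r of 0.55 and 0.54 with it. With scan day removed these percentiles narrowed to -0.46 to 0.50 and -0.50 to 0.47, and the members' medians were 0.35 and 0.41. Dnaja1 lay above the range of Hspa1b in both tissues (r = 0.81 in each, and 0.66 and 0.60 with scan day removed). Hspa8 lay above it in cortex (0.72, and 0.54 with scan day removed) but inside it in hypothalamus (0.67 and 0.41).

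The genes whose levels were most like Cirbp in both tissues, ranked by the weaker r over 24 mice in each, were Bpnt1 (0.73 in cortex and 0.72 in hypothalamus), Mzt1, Trmt5, Acat1 and Xrcc4. Those most opposed to it were Thrap3 (-0.72 and -0.75), Ccdc117, Scaf11, Mga and Tgs1. Thrap3 and Scaf11 encode splicing-associated nuclear proteins. For Hspa1b the most alike were Nsun4 (0.89 and 0.86), Clns1a, Lcmt1, Cct4 and Gga3, of which Cct4 (0.85 and 0.86) is a subunit of the cytosolic chaperonin. The most opposed were Ccdc88a (-0.86 and -0.87), Arhgef7, Pik3c2a, Pdgfb and Zcchc8. With scan day removed, Cct4 had r = 0.66 and 0.64 with Hspa1b, and Thrap3 -0.73 and -0.69 with Cirbp.

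Several sums of markers of other tissue were negatively correlated with the triad. In hypothalamus, r with the summed level of the 5 cortex markers was -0.72 for Hspa1b, -0.71 for Hspa8 and -0.75 for Dnaja1, and -0.44, -0.47 and -0.47 with scan day removed. That sum ran from 0.60 to 1.57 linear units over the hypothalamus arrays, against 7.26 to 12.6 in cortex. In cortex, r with the 8 hypothalamus markers was -0.61, -0.68 and -0.66, and -0.54, -0.59 and -0.57 with scan day removed. Those sums ran from 0.37 to 1.21, against 217 to 430 in hypothalamus. Dnajb1 had r = -0.69 with the cortex markers in hypothalamus (-0.57 with scan day removed). Markers of blood, 2 genes, had r = -0.69 with Hspa8 and -0.61 with Dnaja1 in cortex, over sums of 21.7 to 79.1. With scan day removed these were -0.59 and -0.43. In hypothalamus the blood markers had r = -0.10 with Hspa1b and -0.17 with Hspa8. The 6 choroid plexus markers had r = -0.73 with Dnaja1 and -0.61 with Hspa1b in hypothalamus, over sums of 3.67 to 6.27. With scan day removed these were -0.50 and -0.32. Pituitary markers in hypothalamus, before that removal, had r = -0.15 with Hspa1b, -0.09 with Hspa8 and -0.29 with Dnaja1. Over all probes, the 5th percentile of r with Hspa1b was -0.65 in cortex and -0.67 in hypothalamus. For Cirbp and Rbm3 no marker sum reached an r beyond 0.42 and 0.45 in size before scan day was removed. With scan day removed, Rbm3 had r = -0.63 with the cortex markers in hypothalamus, against -0.26 before. The part of these markers in the covariation was not tested.

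Other genes of the same pathways were counted from lists, with 1 probe per gene. Between the tissues 73.6% of all 31237 probes were called, so a count near that share shows nothing particular to a list. Called were 15 of 16 further heat-inducible chaperones, 28 of 36 constitutive chaperones, 14 of 22 RNA-binding and splicing genes and 4 of 6 heat shock factor genes. Of 17 further heat-inducible chaperones, 16 were tested; 13 were higher and 2 lower in hypothalamus than in cortex, with a median of 0.37 (11 higher and 2 lower, median 0.32, under median centring). The largest were the co-chaperone gene Bag3 (1.102 ± 0.06), the Hsp90 co-chaperone Fkbp4 (0.71 ± 0.05) and the small heat shock gene Cryab (0.64 ± 0.07). Of 36 constitutive chaperones 16 were higher and 12 lower (median 0.07), led by Hspb3 (-2.21 ± 0.07), and 14 and 13 under median centring. Of 22 RNA-binding and splicing genes 12 were higher and 2 lower (median 0.18), and of 6 heat shock factor genes 2 were higher and 2 lower (median -0.16; 1 and 3 under median centring).

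Between genotypes no gene of these 4 lists was called by limma for Per3 5/5 minus Per3 4/4, in either tissue. Against WT, the shares of all probes called were 12.3% and 18.8% in Per3 5/5 cortex and hypothalamus and 22.5% and 15.1% in Per3 4/4, an order kept for the counts that follow. The further heat-inducible chaperones, 16 tested, had 1, 3, 5 and 3 calls, of which 0, 1, 2 and 1 were higher. Blocking on scan day left 1, 0, 3 and 0 calls, and under median centring none of the called genes was higher. Median centring also moved the median of all probes below 0, to -0.055, -0.055, -0.035 and -0.037, from 0.06, 0.03, 0.02 and 0.02. The share of all probes called under it is not given here. Counts under median centring are therefore not read as a trait of a list. The mitochondrial co-chaperonin gene Hspe1 was lower in Per3 5/5 by -0.31 ± 0.07 in cortex (adjusted p = 0.0065; blocked on scan day -0.33, adjusted p = 0.048) and by -0.38 ± 0.07 in hypothalamus (adjusted p = 0.0027; with the block -0.34, adjusted p = 0.051). Hspa1a, the neighbour of Hspa1b, was lower in Per3 4/4 cortex by -0.36 ± 0.12 (adjusted p = 0.030; 0.057 once scan day was a block), whereas Hspa1b was 0.30 above WT there, or 0.028 with scan day blocked, and not called. Of the heat shock factors, Hsf1 was higher in both knock-ins, by 0.39 and 0.26 in cortex and by 0.50 and 0.31 in hypothalamus (adjusted p = 0.0049, 0.019, 0.0027 and 0.038). None of these 4 Hsf1 differences was called once scan day was a block (adjusted p from 0.083 to 0.24).

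Constitutive chaperones, 36 tested, had 4, 10, 12 and 6 calls in the same order, of which 2, 4, 7 and 3 were higher, and 0, 2, 3 and 0 calls with scan day blocked. Under median centring, which moved all probes down as given above, 0, 1, 2 and 1 were higher and 8, 10, 6 and 3 lower. The J-domain gene Dnajb2 was higher in Per3 4/4 cortex by 0.53 ± 0.10 (adjusted p = 0.0016), and by 0.37 with scan day as a block (adjusted p = 0.012). The splicing regulators Tra2a and Tra2b were lower in Per3 5/5 hypothalamus by -0.48 ± 0.12 and -0.62 ± 0.14 (adjusted p = 0.010 and 0.0052), which were not called with scan day as a block (adjusted p = 0.16 and 0.097). The splicing list, 22 tested, had 2, 7, 5 and 4 calls, of which 0, 1, 3 and 2 were higher, and 0, 0, 3 and 0 calls with scan day blocked. Under median centring, with the same shift of all probes, 0, 0, 2 and 0 were higher and 5, 6, 4 and 3 lower. All of these comparisons with WT share the same WT mice.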

How the data were processed

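RNA of frontal cortex and hypothalamus from 24 mice was labelled with Cy3 and hybridised to 48 1-colour Agilent arrays. The authors deposited Feature Extraction output, in which the processed signal is a background-subtracted intensity on a linear scale without scaling between arrays, and a series table of log2 values made in GeneSpring by a 75th percentile shift. For each array the log2 processed signal minus its log2 75th percentile was taken, outlier spots were set to missing and spots of a probe averaged. The series table matched these values, centred per probe, within 0.05 for all member values and was used as an alternative. A probe was tested if, in 1 group or more, 6 of its 8 arrays called it well above background. The labels name the mouse of each array, and both arrays of a mouse lay on 1 slide. Genotypes were compared in each tissue, and tissues within mice, with limma 3.58.1 in R 4.3.3, with Benjamini-Hochberg adjustment over all probes tested and a threshold of 0.05. The study's rank product test was not repeated. Members and gene lists were chosen with earlier results of these data known, so they support nothing by their choice. All member probes are named; from other lists, at most the 3 largest called differences per comparison; and for Cirbp and Hspa1b the 5 most and least alike genes. Correlations used numpy with Python, and the programs were tested on simulated data. Median centring, quantile, normexp (offset 50), filters, scan day, slide, replicate number and single mice were varied. Mice are biological replicates per the labels; the number of arrays limits precision. Markers of vessels, ependyma, choroid plexus and blood were summed too, and are given under other observations. Promoters came from RefSeq (GRCm38.p6). The array annotation is mm9, so its coordinates were not used.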

Additional observations from a re-analysis of the deposited data

Results flagged for a closer look

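Of 108 sets of 8 mice (18 probes in 3 genotypes and 2 tissues), 10 held a mouse far from the other 7 by Dixon's criterion. Chance alone marks about 1 in 20 sets, and probes of 1 gene are not independent. Of the 10, 4 were WT replicate 3: Cirbp in cortex (2.94, nearest other 2.61), and in hypothalamus Dnajb1 (5.6264, nearest 5.11), Hsp90aa1 (7.2402, nearest 6.56) and the Dnaja1 probe A_52_P106429 (3.7987, nearest 3.34), all high. Per3 4/4 replicate 5 was low in cortex on 3 probes, Dnaja1 A_51_P303346 (3.768, nearest 4.19) and Hspa4l A_51_P517928 (0.7912, nearest 1.30) and A_52_P667923 (0.2423, nearest 0.61). The remaining sets were Rbm3 in Per3 5/5 hypothalamus, where replicate 3 was low (0.6055, nearest 0.93), Hsp90aa1 in Per3 4/4 hypothalamus, where replicate 6 was high (7.0469, nearest 6.62), and the Dnaja1 probe A_52_P310225 in WT cortex, where replicate 5 was high (2.1227, nearest 1.77). The cause of these values was not tested.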

How the results depend on the processing

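No called member difference changed direction under any alternative run. Over 17 called differences and their alternatives, 496 of 545 values kept the call and 49 lost it. Most alternatives left out 1 mouse, 24 of them for each difference, and are nearly the same fit. Of the tissue differences, only those of Hsp90aa1 and Hspa8 lost a call, in 1 alternative each. The other losses were of genotype differences, so the pooled count says little about those. With scan day as a block, the number of member probes called against WT went from 2 to 0 in Per3 5/5 cortex, from 3 to 0 in Per3 5/5 hypothalamus and from 1 to 0 in Per3 4/4 hypothalamus, and it was 0 in all 4 comparisons within scan day 3 or scan day 2 alone, which hold 7 and 8 mice. Slide as a random block gave 0 in Per3 5/5 hypothalamus. Normexp background correction gave 0 in Per3 5/5 hypothalamus, 0 in Per3 4/4 hypothalamus and 5 in Per3 4/4 cortex, where it moved the median of all probes to 0.2255 (0.15 in Per3 5/5 cortex and 0.16 in Per3 4/4 hypothalamus). Median centring gave 5 in Per3 5/5 hypothalamus, a filter on every array gave 2 in Per3 4/4 cortex, and the methods' t-test with Benjamini-Hochberg adjustment gave 5 for Per3 4/4 in each tissue. For slide, normexp, median centring, the filter and the t-test, the share of all probes called is not given. Those counts therefore cannot be set against probes at large. With replicate number as a replicate block, 4 probes were called in Per3 5/5 hypothalamus in place of 3. The numbers did not pair mice across genotypes (r of -0.42 to 0.518 between same-numbered arrays, over 0.1 in 21 of 48).

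Correlations depended on scaling. In cortex 4 pairs were called, against 13 with median centring, 2 with quantile normalization, 0 with normexp, 7 with array brightness removed and 11 with the mean of all probes of a gene. In hypothalamus 5 were called, against 21 with median centring, 2 with normexp, 3 with scan day removed and 13 with the mean of all probes. The r of the cold and heat scores was 0.0864 with median centring and -0.0521 with scan day removed in cortex. In hypothalamus it was 0.5839 with median centring, 0.3961 with scan day removed and -0.0344 with the mean of all probes.

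Leaving out single mice gave 2 calls throughout in Per3 5/5 cortex, 1 to 3 in Per3 4/4 cortex, 1 to 5 in Per3 5/5 hypothalamus and 0 to 1 in Per3 4/4 hypothalamus. Between tissues it gave 10 throughout. It gave 1 to 6 called pairs in cortex and 2 to 9 in hypothalamus, and a score r of -0.3997 to -0.1236 and of 0.0033 (without WT replicate 3) to 0.4244. Genes shared by the tissues of a mouse numbered 4 to 6. The cause of these shifts was not tested.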

Other observations

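Markers of other tissue differed between cortex and hypothalamus as well. All 4 ependyma markers were higher in hypothalamus, with a median difference of 4.95, 5 of 6 choroid plexus markers were higher and 1 lower (median 1.61), 2 of 6 pituitary markers were higher (median 1.15), and 5 of 9 vessel markers were lower (median -0.22). Neither of 2 blood markers was called (median 0.17). Of all 31237 probes, 73.6% were called between the tissues. Against WT in hypothalamus, 3 of 6 choroid plexus markers were lower in Per3 5/5 mice (median -0.51) and 1 in Per3 4/4 mice (median -0.26). Of all probes, 18.8% and 15.1% were called in these comparisons. None of these choroid plexus markers was called with scan day as a block (limma adjusted p from 0.060 to 0.25). In the same hypothalamus comparison of Per3 5/5 with WT, 2 of 5 cortex markers were higher, with a median of 0.35. These were Tbr1 and Cux2, with limma adjusted p of 0.044 and 0.040 once scan day was a block.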
